A study of Mus musculus with 3 samples.

Results

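The genes described here encode the folding, import and disposal machinery of the endoplasmic reticulum (ER) and its stress sensors, in the mouse macrophage-like cell line J774A.1. The list holds 40 members, and a member was found where the gene name of a probe equalled its name (Armet is now called Manf). Of these, 38 were present on the array, with 75 of its 41174 probes, among 27720 gene names. They were 16 of folding, 12 of translocation, 7 of degradation and 3 sensors and factors. No probe carried the names Dnajc3 or Vimp.

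Cells were kept for 6 h in 1 of 3 media. One was Earle's Balanced Salt Solution (EBSS), a glucose and salt solution that holds no amino acids, to which SB202190 had been added at 10 µM. SB202190 inhibits p38 MAP kinases. The other media were EBSS alone and RPMI with 10% fetal bovine serum, called RPMI here. By the wording of the design, EBSS could have been added to RPMI, but the samples' source names give each alone and were followed. The labels do not say whether EBSS alone held the inhibitor's solvent. The media differ in amino acids, in serum and in other ingredients, whose effects cannot be told apart.

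RNA of the 3 media was compared on 3 two-colour arrays of 1 slide that closed a loop, so that each medium was read in Cy5 on 1 array and in Cy3 on another. The labels name 1 source for each medium, and each was treated as 1 sample. There is no replicate culture, so no p-value is given, and every error is a technical standard error (SE) from the loop of arrays, which leaves out the spread between cultures. The median technical SE of a log2 ratio was 0.11 over all measured genes and ranged between 0.06 and 0.24 over the members. RNA was taken from whole cultures, in which fewer cells with a transcript and less of it per cell cannot be told apart.

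Proteins bound for secretion or for membranes enter the ER through the Sec61 channel, lose their signal peptide and fold there with chaperones and disulfide isomerases. Chains that fail to fold are passed back to the cytosol for degradation by the proteasome, a route known as ER-associated degradation. When unfolded proteins pile up, the sensors Ire1 (Ern1), Perk (Eif2ak3) and Atf6 start the unfolded protein response, which is known to raise the transcripts of chaperones through Atf6 and Xbp1. Macrophages use this machinery for secreted cytokines, lysosomal enzymes and surface receptors.

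A gene was called measured if, in 1 or both of the media compared, both of that medium's channels read its brightest probe well above background. Each ratio has a direct reading, from the array that held both media, and an indirect one through the other 2 arrays. A measured gene was counted as higher or lower if the log2 ratio reached 1 in size, with both readings of 1 sign and each reaching 0.5 in size. In EBSS against RPMI, 4 of 38 members were higher (Herpud1, Atf6, Dnajb9 and Ero1l) and 1 was lower (Ssr1). The background was 4.49% higher and 2.83% lower among 11899 measured genes. With SB202190 in EBSS against EBSS alone, 0 of 37 members were higher and 2 were lower (Atf6 and Dnajb9), against 0.896% higher and 2.93% lower among 11714 genes. In EBSS with SB202190 against RPMI, 1 of 38 members was higher (Herpud1) and 0 were lower, against 1.46% higher and 2.42% lower among 11886 genes. The 3 comparisons share their media, and a gene's ratio in EBSS with SB202190 against RPMI is the sum of the others, so they are given side by side and not as separate evidence.

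The labelled cell type was checked first. All 8 macrophage markers looked at were measured, and 0 of 10 markers of T cells, B cells, fibroblasts, epithelium and endothelium were. The lipopolysaccharide co-receptor gene Cd14 was lower with SB202190 in EBSS, at -1.56 ± 0.24. Over 10790 genes above background in every channel, the correlation across genes was 0.995 to 0.997 for the 2 channels of a medium, and 0.944 to 0.971 between media. Of the genes counted in EBSS against RPMI, 61.3% were higher, or 47.0% with the log ratios of the scanner software and 77.1% with median centring in place of intensity-dependent (loess) normalization. For SB202190 in EBSS these shares were 23.4%, 50.2% and 12.2%, and in EBSS with SB202190 against RPMI 37.5% and, with median centring, 49.7%.

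The scale matters for the members because they were bright, with a median log2 intensity of 13.34 against 10.55 for all measured genes. With median centring, the 1390 measured genes at least as bright as the median member had a median log2 ratio of 0.49 in EBSS against RPMI, where loess gave -0.11. Over the 38 members these medians were 0.42 with median centring and -0.07 with loess. Hsp90b1, Calr and Sec61a1 had ratios of opposite sign with the 2 scalings in both comparisons that involve EBSS alone.

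The promoters are shown because the ER stress response element, bound by Atf6 and Xbp1 together with NF-Y, is the textbook mark of this gene group. RefSeq promoter windows of build GRCm38.p6, 250 bases before to 50 after a transcript start, were matched for 33 of 40 members. The element was searched as CCAAT, 9 bases of any kind and CCACG, on both strands. It stood in 10 of these 33 members (30.3%), against 37 of 27025 genes (0.137%). By role, it stood in 8 of 15 folding members, 0 of 9 translocation members, 2 of 7 degradation members and 0 of 2 sensors and factors. Below are 6 of them, read 5′ to 3′ on the strand of the gene, with both parts of the element in capitals. They are Hspa5 (chr2:34772013-34772055, plus strand), Hsp90b1 (chr10:86705626-86705668, minus strand), Calr (chr8:84847063-84847105, minus strand, element on the opposite strand), Canx (chr11:50325788-50325830, minus strand), Pdia6 (chr12:17266479-17266521, plus strand) and Syvn1 (chr19:6046520-6046562, plus strand).
Hspa5: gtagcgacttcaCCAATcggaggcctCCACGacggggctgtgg
Hsp90b1: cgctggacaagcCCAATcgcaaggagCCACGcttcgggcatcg
Calr: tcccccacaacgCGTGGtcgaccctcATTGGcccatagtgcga
Canx: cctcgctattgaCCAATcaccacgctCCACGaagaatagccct
Pdia6: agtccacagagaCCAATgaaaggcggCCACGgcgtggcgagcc
Syvn1: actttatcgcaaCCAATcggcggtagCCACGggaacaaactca

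The other windows shown belong to members that were counted in EBSS. Herpud1 holds the second form of the element, searched as ATTGG, 1 base of any kind and CCACG on both strands, which stood in 2 members and in 12 of all genes (0.0444%). It also holds TGATGNAA, the letters of a composite C/EBP and ATF element known from targets of Atf4 and Ddit3, on the opposite strand. That motif was added after the ratios were known, and it stood in 1 of 33 members and in 4.51% of all genes. The Herpud1 window is chr8:94386309-94386428 (plus strand), with both elements in capitals. The Dnajb9 window is chr12:44210069-44210188 (minus strand) and the Ero1l window, under the current name Ero1a, is chr14:45318573-45318692 (minus strand), neither with a capital since neither holds one of these motifs. The core TGACGTGG of the unfolded protein response element stood in 0 members and in 0.714% of all genes. A match is a description of letters and not a binding site, and the absence of one says nothing of the factor.
Herpud1: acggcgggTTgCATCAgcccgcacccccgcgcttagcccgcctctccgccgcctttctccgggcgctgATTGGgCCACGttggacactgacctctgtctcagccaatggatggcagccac
Dnajb9: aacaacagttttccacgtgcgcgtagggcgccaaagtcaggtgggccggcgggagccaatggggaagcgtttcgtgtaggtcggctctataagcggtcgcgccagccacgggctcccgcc
Ero1l: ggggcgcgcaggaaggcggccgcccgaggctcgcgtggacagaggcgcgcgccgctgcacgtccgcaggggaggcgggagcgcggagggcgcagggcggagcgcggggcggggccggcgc

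Among the sensors and factors, Atf6 stood apart. Atf6 is a membrane-bound transcription factor that is cut in the Golgi and then enters the nucleus. Its log2 intensity was 12.83 and 12.97 in EBSS with SB202190, 14.45 and 14.21 in EBSS and 12.15 and 12.11 in RPMI. Both channels of EBSS lay above all 4 others, and both of EBSS with SB202190 lay above both of RPMI. The log2 ratio was 2.28 ± 0.13 (technical SE) in EBSS against RPMI, or 4.86-fold, with a direct reading of 2.30 and an indirect one of 2.24. In EBSS with SB202190 against EBSS alone Atf6 was lower, with a log2 ratio of -1.40 ± 0.13, or 2.64-fold. Its second probe gave 1.81 and -1.34 in these comparisons. Against RPMI, EBSS with SB202190 gave 0.88, which did not reach the size required. There the second probe gave 0.47, and the brightest gave 0.51 with equal spread between arrays. The probe lies on chromosome 1 from 172544223 to 172544282 (mm8). The exon a probe falls in was not analysed here.

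Xbp1, whose transcript Ire1 splices into the form that encodes an active factor, had log2 intensities of 11.36 and 11.31 in EBSS with SB202190, 11.68 and 11.68 in EBSS and 11.60 and 11.64 in RPMI. EBSS and RPMI nearly coincided, and both channels of EBSS with SB202190 lay below them. The log2 ratio was 0.04 ± 0.11 in EBSS against RPMI and -0.34 with SB202190 in EBSS, and whether the probe reads the spliced form was not analysed here. Ern1, which encodes Ire1, had a log2 ratio of 0.19 ± 0.10 in EBSS and -0.08 with SB202190. Of the 3 sensors and factors, Atf6 was thus the 1 counted in either comparison.

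**Figure D1:**
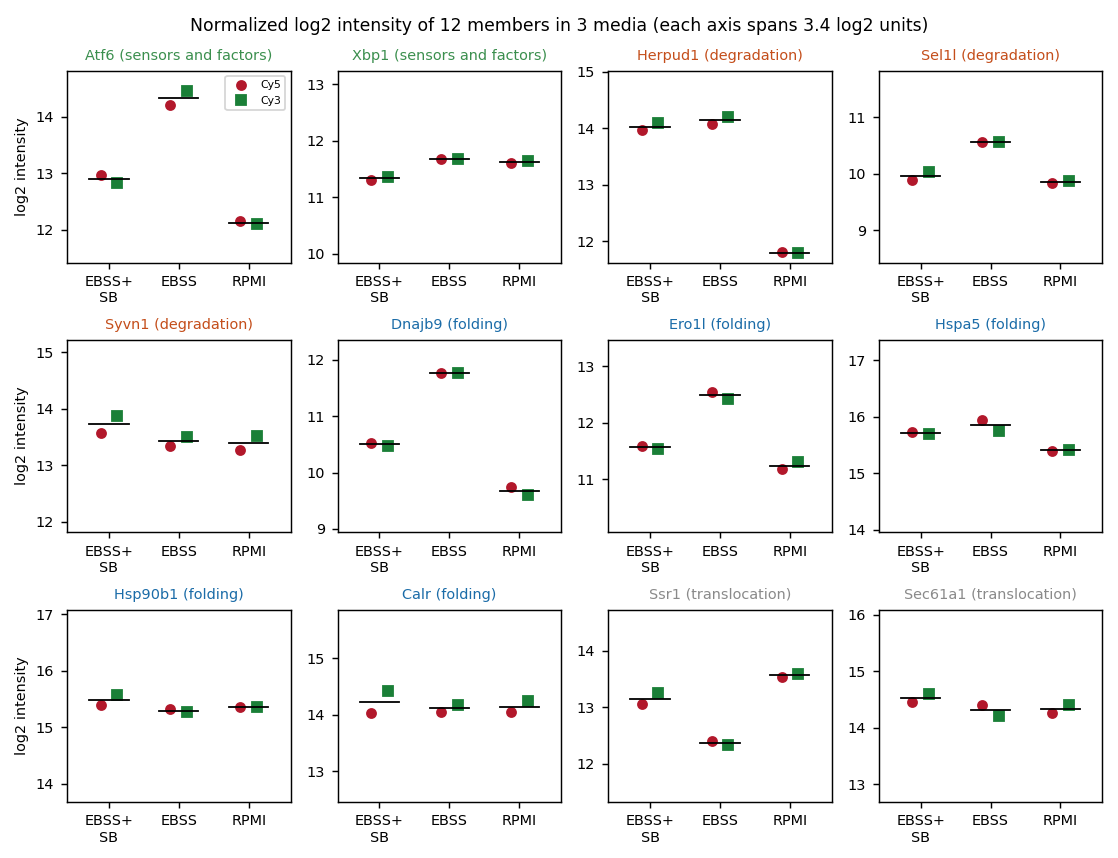
Normalized log2 intensity of 12 members in EBSS with SB202190, EBSS and RPMI, with Cy5 as circles, Cy3 as squares and a line at their mean. All axes span the same range. Atf6, Dnajb9 and Ero1l are highest in EBSS and lower with SB202190, Herpud1 is high in EBSS with and without SB202190, Ssr1 is lowest in EBSS, and Xbp1, Hsp90b1, Calr and Sec61a1 differ little between media.

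Degradation was the role with the highest median ratio in EBSS, 0.67 above that of all measured genes, and it stayed between 0.52 and 0.73 under the other settings. With 7 members, this median rests on the ratio of Sel1l, at 0.67, and the next lower ratio was 0.00 for Syvn1. Vimp, which was looked up later and gave 0.03, is not among the 7. All measured genes were dimmer at the median than these members, and values for bright genes are given below. Herpud1, a membrane protein that assembles the Hrd1 ubiquitin ligase complex, had a log2 intensity of 14.09 and 13.96 in EBSS with SB202190, 14.20 and 14.08 in EBSS and 11.81 and 11.78 in RPMI. All 4 channels of EBSS, with or without the inhibitor, lay more than 2 log2 units above both of RPMI. The log2 ratio was 2.31 ± 0.13 in EBSS against RPMI, or 4.98-fold, and 2.25 ± 0.13 in EBSS with SB202190 against RPMI, or 4.76-fold. Between EBSS with SB202190 and EBSS alone it was -0.07 ± 0.13, but this value depends on the scaling. It was -0.45 with median centring, -0.38 with equal spread between arrays and -0.21 as the indirect reading, none of them near the size required. Herpud1 has 1 probe on the array, on chromosome 8 from 97284346 to 97284405 (mm8), so no second probe checks it.

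Derl1, Edem1 and Sel1l had ratios between 0.67 and 0.92 in EBSS, under the size required. Derl1 was counted as higher under 3 of 9 other settings (median centring, the direct reading alone and equal spread between arrays) and Edem1 under 1 (median centring). Derl1 belongs to the derlins, which help move chains out of the ER. Its log2 intensity was 13.10 and 13.25 in EBSS with SB202190, 13.88 and 13.60 in EBSS and 12.88 and 13.00 in RPMI. Its 4 probes gave log2 ratios of 0.92, 0.72, 0.65 and 1.47 in EBSS against RPMI, of which the last, from the dimmest probe, met the rule, and -0.58, -0.29, -0.29 and -0.93 with SB202190 in EBSS. All 4 probes had the same direction in each comparison and differed in size.

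Edem1, a mannosidase-like protein that marks misfolded glycoproteins for disposal, had log2 intensities of 13.24 and 13.08 in EBSS with SB202190, 13.58 and 13.55 in EBSS and 12.87 and 12.81 in RPMI. Its 3 probes gave 0.67, 0.57 and 0.35 in EBSS, and -0.36, -1.22 and -0.42 with SB202190 in EBSS, where the second met the rule. Sel1l, the partner of Hrd1, had log2 intensities of 10.03 and 9.89 in EBSS with SB202190, 10.57 and 10.56 in EBSS and 9.84 and 9.87 in RPMI. Both channels of EBSS lay above all the others, by less than the size required. The ratio of Sel1l was 0.67 ± 0.11 in EBSS against RPMI and -0.59 ± 0.11 with SB202190 in EBSS. Its second measured probe gave 0.73 and -0.19, the last with direct and indirect readings of -0.34 and 0.09, so that the size of the ratio with SB202190 depends on the probe.

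The other degradation members had ratios close to 0 in EBSS. Syvn1, which encodes the ligase Hrd1 itself and carries the ER stress element, had log2 intensities of 13.87 and 13.58 in EBSS with SB202190, 13.51 and 13.35 in EBSS and 13.28 and 13.52 in RPMI. Its ratio in EBSS was 0.00 ± 0.13, a size at which its sign is not settled. The direct and indirect readings were 0.23 and -0.46. A gene's dye effect shifts these readings in opposite directions and cancels in the ratio, and whether it made this gap was not tested. Derl2 lay at -0.09 and Derl3, another derlin with the element, at -0.06 ± 0.06. Derl3 was above background in 1 of 2 channels of EBSS with SB202190, 1 of 2 of EBSS and 2 of 2 of RPMI, so that it had no measured ratio between EBSS with SB202190 and EBSS. Vimp, which recruits the p97 ATPase, was found by a RefSeq accession, looked up after the other values were seen, under the older name H47. Its 1 probe gave 0.03 in EBSS against RPMI and -0.15 with SB202190 in EBSS. Between EBSS with SB202190 and EBSS, 5 of 6 measured degradation members had a ratio below 0, against 5861 of 11714 measured genes, with a median of -0.24, and 0 were counted.

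**Figure D2:**
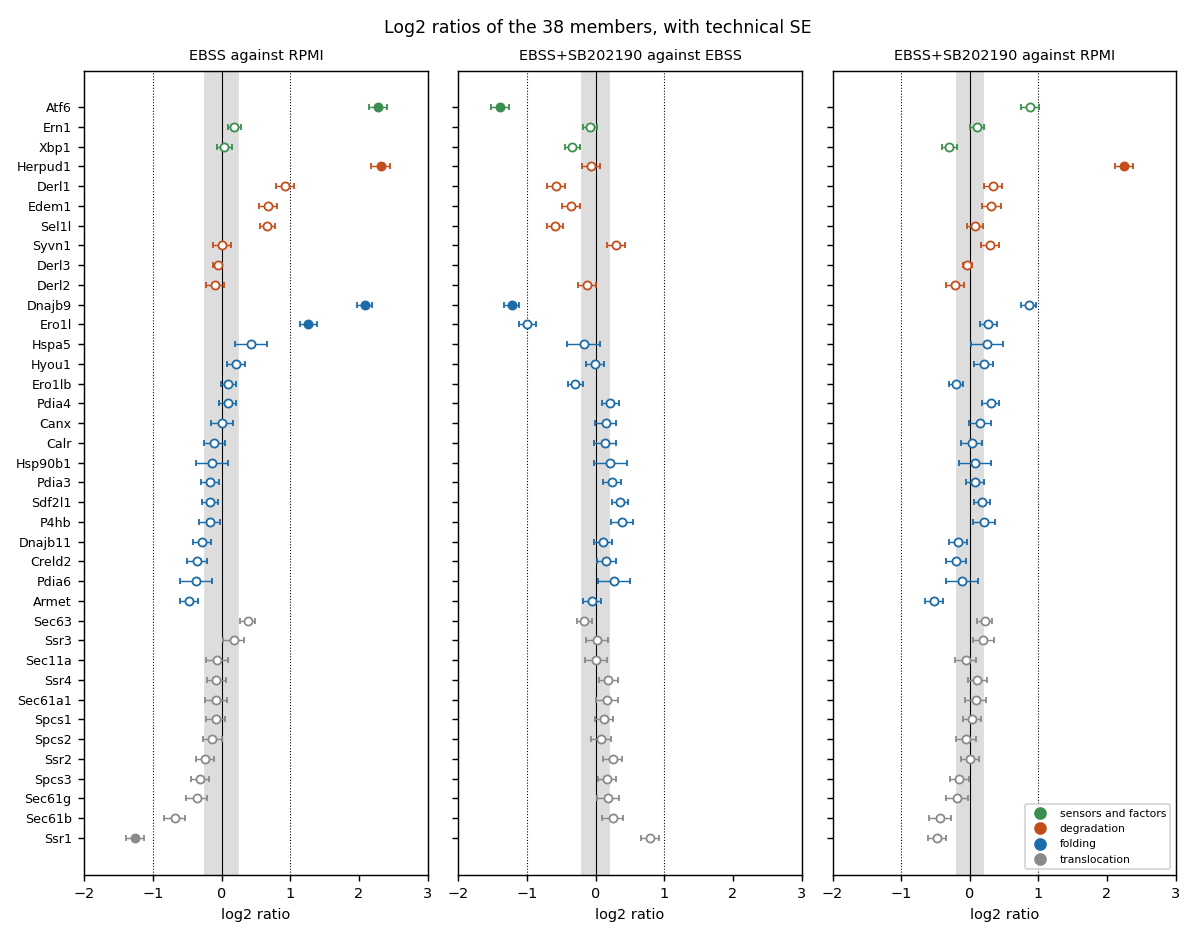
Log2 ratios of the members in the 3 comparisons, by role, with bars of 1 technical SE (the value of the gene's intensity bin), filled where counted; dotted lines mark a log2 ratio of 1 in size and the grey band the middle of all measured genes, between the lower and upper quartile. Derl3 is left out of the middle panel, where it was not measured. Herpud1, Atf6, Dnajb9 and Ero1l lie beyond the line in EBSS against RPMI, and only Herpud1 does so in EBSS with SB202190 against RPMI.

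Folding members split into 2 that were counted as higher in EBSS, Dnajb9 and Ero1l, and 14 with log2 ratios between -0.47 and 0.43. Dnajb9, also called ERdj4, is a co-chaperone of the chaperone BiP. Its log2 intensity was 10.48 and 10.53 in EBSS with SB202190, 11.75 and 11.77 in EBSS and 9.74 and 9.60 in RPMI. The 3 media did not overlap, and EBSS with SB202190 lay between the others. The ratio was 2.08 ± 0.11 in EBSS against RPMI, or 4.24-fold, -1.22 ± 0.11 with SB202190 in EBSS, or 2.34-fold lower, and 0.86 in EBSS with SB202190 against RPMI, short of the size required. The other probes of Dnajb9 gave 1.98 and 1.11 in EBSS and -1.35 and -0.58 with SB202190. The brightest one lies on chromosome 12 from 45076612 to 45076671 (mm8).

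Ero1l encodes an oxidase that restores the disulfide isomerases for the next round. Its log2 intensity was 11.53 and 11.60 in EBSS with SB202190, 12.42 and 12.55 in EBSS and 11.18 and 11.31 in RPMI. Both EBSS channels lay above all 4 others. The ratio was 1.26 ± 0.12 in EBSS against RPMI, or 2.40-fold, with 0.81 for the second probe. In EBSS with SB202190 against EBSS alone it was -0.996, just short of the size required, with -0.70 for the second probe, and it was counted as lower under 5 of 9 other settings. Ero1lb, its paralog with the ER stress element, had a ratio of 0.10 ± 0.11 in EBSS and -0.30 with SB202190.

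Hspa5 encodes BiP, the main ER chaperone and the usual marker of ER stress. Its log2 intensity was 15.70 and 15.73 in EBSS with SB202190, 15.76 and 15.95 in EBSS and 15.40 and 15.41 in RPMI. The channels of each medium did not overlap, but the steps between them were small. The ratio was 0.43 ± 0.24 in EBSS against RPMI, or 1.34-fold, and -0.18 ± 0.24 with SB202190 in EBSS. With median centring it was 1.11 in EBSS and was counted as higher, which 1 of 9 other settings gave.

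Hsp90b1, the ER form of the chaperone Hsp90, had log2 intensities of 15.57 and 15.40 in EBSS with SB202190, 15.26 and 15.33 in EBSS and 15.37 and 15.36 in RPMI. Its ratio was -0.14 ± 0.24 in EBSS, or 0.52 with median centring. Calr, a chaperone that binds sugars on new glycoproteins, had log2 intensities of 14.42 and 14.03 in EBSS with SB202190, 14.18 and 14.05 in EBSS and 14.05 and 14.24 in RPMI, and the 3 media overlapped. The ratio of Calr in EBSS was -0.11 ± 0.16, or 0.44 with median centring, with a direct reading of 0.13 and an indirect one of -0.59. Its membrane-bound relative Canx lay at 0.01 ± 0.16.

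The disulfide isomerases, which form and shuffle bonds between cysteines, showed no member near the size required. In EBSS against RPMI, P4hb had a ratio of -0.18, Pdia3 of -0.17, Pdia4 of 0.09 and Pdia6 of -0.37. Their ratios with SB202190 in EBSS lay between 0.21 and 0.38 with the brightest probes, with technical SEs of 0.12 to 0.24. Other measured probes of Pdia6 gave -0.02 and -0.14 in EBSS against RPMI, and 0.06 and 0.05 with SB202190 in EBSS. The other folding members were also short of the size required. Hyou1, which exchanges nucleotides on BiP, had 0.21 in EBSS. The BiP co-chaperone Dnajb11 had -0.28, and Sdf2l1, which joins Dnajb11 in a complex, had -0.17. Creld2 and Armet, both known as ER stress-inducible, had -0.36 ± 0.14 and -0.47 ± 0.13. These 5 lay, with SB202190 in EBSS, between -0.05 and 0.35. Dnajc3, a BiP co-chaperone that inhibits Perk, was found by accession in the same later lookup under the name Dnajc3a, with 4 probes between -0.11 and 0.02 in EBSS.

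**Figure D3:**
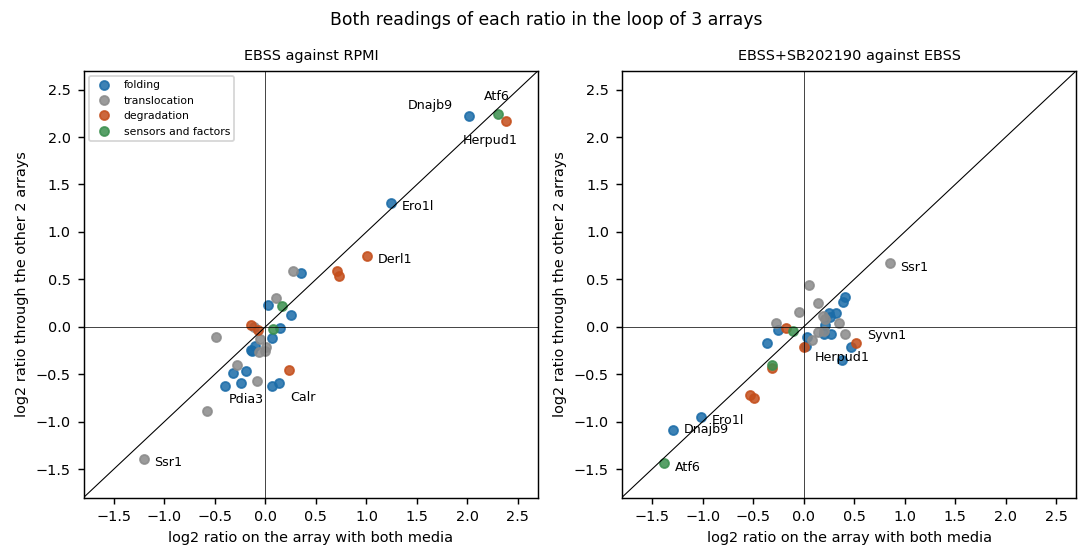
Direct reading of the log2 ratio (x axis) against the indirect reading (y axis) for each measured member, in EBSS against RPMI and with SB202190 in EBSS; the diagonal marks equal readings. Atf6, Dnajb9, Herpud1 and Ero1l lie near the diagonal in the first panel, and Calr, Pdia3 and Syvn1 have readings of opposite sign. A gene's dye effect shifts the readings in opposite directions and cancels in the ratio.

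Among the translocation members, Ssr1 was lower in EBSS, and 0 of 12 were higher. Ssr1 is a subunit of the translocon-associated protein complex, which sits beside the Sec61 channel. Its log2 intensity was 13.25 and 13.05 in EBSS with SB202190, 12.33 and 12.40 in EBSS and 13.54 and 13.59 in RPMI. Both EBSS channels lay below all 4 others. The ratio was -1.27 ± 0.13 in EBSS against RPMI, or 2.41-fold lower, and 0.79 ± 0.13 with SB202190 in EBSS. The other probes of Ssr1 gave -0.52 and -0.08 in EBSS, and 0.31 and 0.06 with SB202190. The last of them was dim, at a log2 intensity of 8.74 with 0 of 2 EBSS channels above background, so its ratios say little. As the other one fell short of the size required, the call rests on the brightest probe, on chromosome 13 from 37985744 to 37985803 (mm8). With the median over probes, which includes the dim one, or with median centring, Ssr1 was not counted.

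The other subunits of the same complex, Ssr2, Ssr3 and Ssr4, had ratios of -0.25, 0.18 and -0.08 in EBSS. Sec61a1, the pore of the channel, had log2 intensities of 14.60 and 14.46 in EBSS with SB202190, 14.21 and 14.41 in EBSS and 14.26 and 14.40 in RPMI. EBSS and RPMI overlapped, and the ratio of Sec61a1 was -0.08 ± 0.16. Its small partners Sec61b and Sec61g had -0.69 ± 0.16 and -0.36. Sec63, which brings BiP to the channel, had 0.38 with its brightest probe and ratios down to -0.14 with others. The signal peptidase subunits lay between -0.32 and -0.07, with -0.09 for Spcs1, -0.13 for Spcs2, -0.32 for Spcs3 and -0.07 for the catalytic Sec11a. Between EBSS with SB202190 and EBSS, 11 of 12 translocation members had a ratio above 0, from 0.00 for Sec11a to 0.79 for Ssr1, against 5853 of 11714 measured genes, and 0 were counted. These are ratios of the brightest probes, and Ssr3, Sec61a1, Spcs2 and Spcs3 each had another probe of opposite sign. The median of the group turned with the scaling, as given below. All measured genes were also dimmer at the median than these members. With loess, genes at least as bright as the median member had a median of 0.10 in this comparison, against 0.17 for the 12 translocation members. Sec63 had -0.17.

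The median log2 ratio in EBSS against RPMI, less that of all measured genes, was -0.13 for folding and -0.11 for translocation members, or 0.38 and 0.34 with median centring. For SB202190 in EBSS against EBSS alone they were 0.14 and 0.17, or -0.23 and -0.20 with median centring. The direction of both groups thus turned with the scaling in both comparisons. For degradation members the median was 0.67 in EBSS and -0.24 with SB202190 in EBSS, against 0.67 and -0.56 with median centring, and its direction held. In EBSS this rests on Sel1l, the middle member, which had 0.67 with loess and 0.70 with median centring. Sel1l had a mean log2 intensity of 10.10, below the median of 10.55 for all measured genes. The brighter degradation member Syvn1 went from 0.00 with loess to 0.49 with median centring. The 1390 genes at least as bright as the median member had medians of 0.49 and -0.27 with median centring, and of -0.11 and 0.10 with loess. With median centring, the medians of the 7 degradation members were 0.70 and -0.45 when that of all genes was not taken off.

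In EBSS with SB202190 against RPMI, the 37 members other than Herpud1 had ratios between -0.53 for Armet and 0.88 for Atf6. The medians by role were 0.11 for folding, -0.03 for translocation and 0.29 for degradation members, and 0.02 for all measured genes. The ratios of Atf6, Dnajb9, Derl1, Edem1, Sel1l, Ero1l, Sec61b and Ssr1 were 0.88, 0.86, 0.34, 0.32, 0.08, 0.27, -0.44 and -0.48 with their brightest probes. Other probes differed most for Edem1, whose 3 probes gave 0.32, -0.65 and -0.07, a gap of 0.96 and opposite signs. The second probe of Sel1l gave 0.54. Edem1 was the 1 member whose probes differed by over 0.5 in this comparison, and 7 of 20 members had probes of opposite sign.

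**Figure D4:**
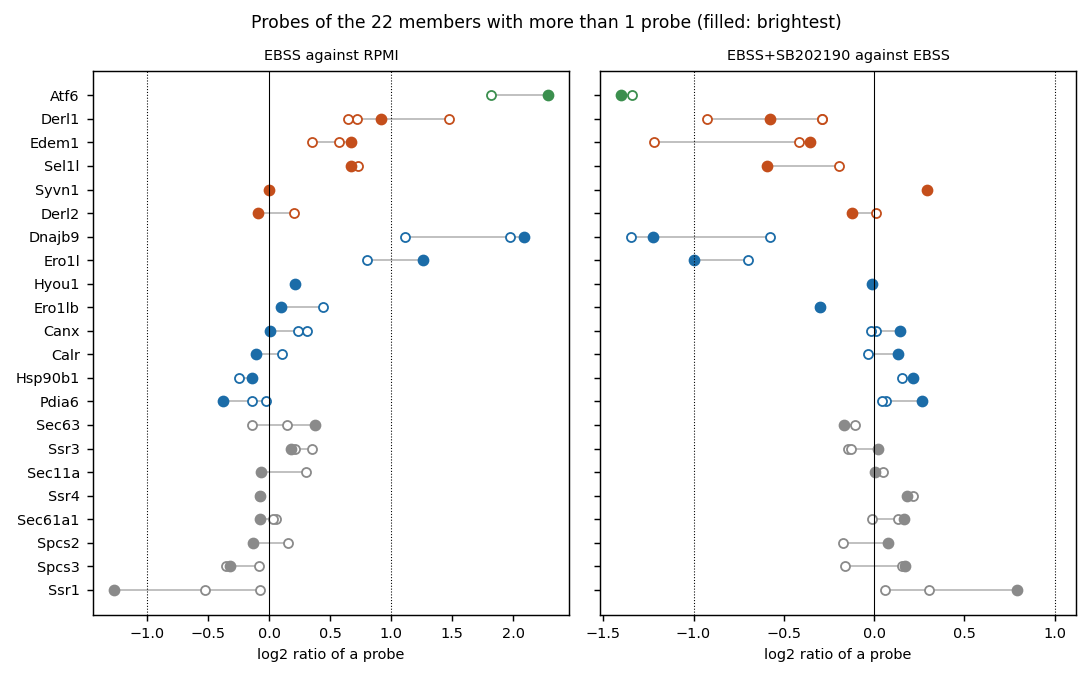
Log2 ratios of each measured probe of the 22 members with more than 1 probe, filled for the brightest, in EBSS against RPMI and with SB202190 in EBSS; dotted lines mark a log2 ratio of 1 in size. Probes of Ssr1, Dnajb9 and Derl1 spread by more than 0.8 in EBSS, while both probes of Atf6 lie beyond the line in both panels. For Ssr1 that spread includes a dim probe that was not above background in EBSS.

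Of the 20 members with at least 2 measured probes, 4 had probes that differed by over 0.5 in EBSS against RPMI. The gap was 1.19 for Ssr1, 0.97 for Dnajb9, 0.82 for Derl1 and 0.52 for Sec63. In the comparison of SB202190 in EBSS there were also 4, Edem1 (0.87), Dnajb9 (0.77), Ssr1 (0.73) and Derl1 (0.64). The gaps of Ssr1 and Sec63 include a dim probe each, at log2 intensities of 8.74 and 8.82. Of their EBSS channels, 0 of 2 and 1 of 2 were above background. The median gap was 0.31 and 0.17 in these comparisons. For 6 members the probes had opposite signs in EBSS, and for 7 with SB202190.

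The ratios were set against the promoter letters shown above. With loess, the 9 measured members with the ER stress response element had a median log2 ratio of -0.06 in EBSS. That median is the ratio of Derl3, whose dim probe was above background in 1 of 2 EBSS channels. The 9 members lay between -0.37 for Pdia6 and 0.43 for Hspa5, and none reached 1 in size. These values depend on the scaling. Median centring gave 1.11 for Hspa5, 0.52 for Hsp90b1, 0.49 for Syvn1 and 0.44 for Calr, and the median of the 9 was not taken there. The 20 members with neither form of it had, with loess, a median of -0.07. They ranged between -1.27 for Ssr1 and 2.08 for Dnajb9, which had -0.82 and 2.24 with median centring. Of the 5 members counted in EBSS, Herpud1 holds the second form, Dnajb9, Ero1l and Ssr1 hold neither, and Atf6 had no promoter window here. Dnajb11, the other member with the second form, had a ratio of -0.28.

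**Figure D5:**
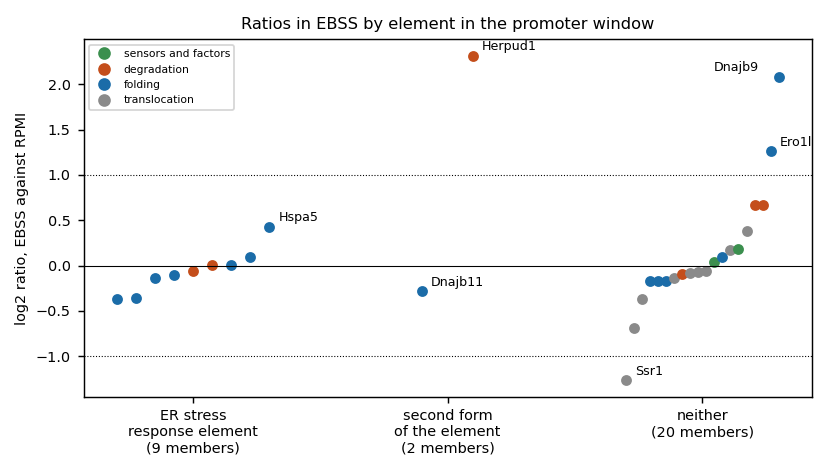
Log2 ratio in EBSS against RPMI of the 31 measured members with a promoter window, by the element found in it, coloured by role; dotted lines mark a log2 ratio of 1 in size. With loess, as drawn here, the 9 members with the ER stress response element lie between -0.37 and 0.43, and Herpud1 lies at 2.31 with the second form.

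Further genes of the same pathways came from fixed lists. Over all measured genes, 4.49% were higher and 2.83% lower in EBSS against RPMI. Of 15 other folding and disulfide genes, 0 were counted in EBSS against RPMI, with a median of -0.21. Of 15 genes of the calnexin cycle and glycosylation, 1 was lower, Gcs1 (now Mogs), the glucosidase that trims the first glucose, at -1.19 ± 0.16. It lay at 0.78 with SB202190 in EBSS. Of 15 genes of the signal recognition particle and other translocation factors, 0 were counted, with a median of 0.06. Of 24 other degradation genes, 1 was higher, the ubiquitin-conjugating enzyme gene Ube2g2, at 1.17 ± 0.13, and the median was 0.26. Of 13 other sensors, proteases and factors, 2 were higher. These were Ddit3, which encodes the stress factor CHOP, at 3.32 ± 0.11, and Atf4, the main factor of the amino acid response, at 1.64 ± 0.14. With SB202190 in EBSS, 0 genes of these lists were counted, against 0.896% higher and 2.93% lower over all measured genes. Ddit3 and Atf4 had ratios of -0.16 and -0.68 there. In EBSS with SB202190 against RPMI, 1 was higher, Ddit3, at 3.16 ± 0.11, against 1.46% of all measured genes.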

How the data were processed

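Total RNA of J774A.1 cells in 3 media was hybridised on 3 two-colour Agilent arrays of 1 slide. According to the submitters' processing notes, Agilent Feature Extraction 9.5.3.1 read the spots. Per the file headers, the deposited mean intensities of spots and median intensities of local background are not normalized. They also hold processed intensities, background-subtracted and dye-normalized by the scanner software, and their log10 ratio, deposited as 0 in 32% to 35.4% of spots. Other deposited marks flag spots above background, outliers and controls. The authors' series table holds the processed intensities as log2 of Cy5 over Cy3, averaged over spots, without centring, with medians of -0.0854, -0.0766 and -0.166.

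Mean intensities were corrected with normexp (offset 50) and normalized by loess with controls at weight 0, in limma 3.58.1 (R 4.3.3). Of 45018 spots per array, 1639 controls and 136 to 178 outliers were left out, none was saturated, and spots of a probe were averaged, which left out 49 probes. Channel levels were also scaled between arrays (Aquantile). A gene's brightest probe represents it. Log2 ratios are least-squares estimates over the loop, in which a gene's dye effect cancels, and technical SEs come from the sum around the loop (SD 0.282) in 30 intensity bins. The estimate was tested on simulated data. Python 3.11.15, numpy 2.4.6, pandas 2.3.3 and matplotlib 3.10.9 did the rest. Probe positions are on mm8, as in the files. Of the member probes with a RefSeq accession, 65 of 65 matched the member's gene.

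All members were to be named, and other genes only from fixed lists where counted. Members and lists were chosen with earlier results of these data known. The lookup of Dnajc3 and Vimp by accession and the TGATGNAA search were added later. The other settings tried were the scanner's log ratios, no background subtraction, median centring, no filter on dim probes, a stricter filter, either path alone, the median over probes and equal spread between arrays.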

Additional observations from a re-analysis of the deposited data

How the results depend on the processing

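Under 9 other settings, the direction of every counted member held. Atf6, Dnajb9, Ero1l and Herpud1 were counted as higher in EBSS against RPMI under all of them, Atf6 and Dnajb9 as lower with SB202190 in EBSS, and Herpud1 as higher in EBSS with SB202190 against RPMI. Either path alone could not change a direction, since the rule for counting required both readings to be of 1 sign. Both settings of the filter on dim probes left the ratio of a counted member unchanged, so they could not change a direction either. Median centring on probes above background gave 7 members higher and 0 lower in EBSS against RPMI, against 4 and 1, with Hspa5, Derl1 and Edem1 added and Ssr1 lost. It moved the medians of folding, translocation and degradation members, less that of all genes, to -0.23, -0.20 and -0.56 with SB202190 in EBSS and to 0.29, 0.13 and 0.43 in EBSS with SB202190 against RPMI, and in EBSS against RPMI those of folding and translocation to 0.38 and 0.34.

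The median over all measured probes gave 0 members lower in EBSS, since Ssr1 was no longer counted. Equal spread between arrays gave 1 member higher with SB202190 in EBSS (Ssr1) and a degradation median of -0.44. The scanner's log ratios gave 2 members higher in EBSS with SB202190 against RPMI, Dnajb9 being added. The folding median in EBSS against RPMI was 0.019 with the scanner's log ratios, 0.015 without background subtraction and 0.052 on the array of both media alone. The path through the other arrays alone gave medians of -0.26 for translocation and 0.52 for degradation members in EBSS, -0.086 for folding members with SB202190 in EBSS and 0.25 for them in EBSS with SB202190 against RPMI. The degradation median in that last comparison was 0.046 on the array of both media alone. The cause of these moves was not tested. Of 324 recomputed ratios of 12 members, 83 moved by more than the technical SE and 0 counted ones changed sign. The 324 include both settings of the filter on dim probes, where these ratios could not move. They also include either path alone, where the rule had fixed the sign of counted ones.

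Counts over all genes moved by over 1.5 times under several settings. In EBSS against RPMI they were 534 higher and 337 lower, against 970 and 1096 with the scanner's log ratios, 617 and 542 without background subtraction and 933 and 277 with median centring. With SB202190 in EBSS they were 105 and 343, against 783 and 777, 244 and 491 and 78 and 561 in the same order, 260 and 623 with equal spread, and 203 and 404 on the path through the other arrays. In EBSS with SB202190 against RPMI they were 173 and 288, against 474 and 778 with the scanner's log ratios and 83 and 158 with equal spread. Median centring gave 193 and 195 there, short of a move of 1.5 times. The slide as a block was not run, because all arrays share 1 slide. No paired analysis was possible because each medium is 1 sample without a replicate number. Ratios of dim probes such as Derl3 are limited by signal over background.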
